A study of Homo sapiens with 8 samples.

Results

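Single untreated ATM knockdown cells of the established breast cancer line MDA-MB-231, which is of human triple-negative type, were divided by their own level of CXCL8, the gene of the neutrophil-attracting chemokine interleukin 8. A cell was called CXCL8-positive when CXCL8 made up at least 15 of every 1000000 counts of that cell (counts per 1000000, CPM), and CXCL8-negative below 15 CPM. Of 93 deposited cells in the 2 libraries of untreated knockdown, 85 had at least 1000 detected genes and 5000 counts and were kept. Of these 52 were positive and 33 negative, out of 363 kept cells among 378 deposited in the whole series. The classes were chosen by the measured CXCL8 level of these same cells, so CXCL8 values are given as a description with no test, and every test concerns other genes.

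The series held 8 libraries in 4 groups of 2, which crossed genotype (WT or ATM knockdown) with treatment (untreated, or given 5 Gy of ionizing radiation and kept in culture for 4 h). All cells were grown in the same medium and picked one at a time by mouth pipette. ATM encodes a kinase activated by broken DNA, and neither the means of its depletion nor whether the knockdown line is 1 clone is given in the labels. Nor is it given if the paired libraries of each group were grown separately, so p-values reflect only how these libraries vary, and that variation may be technical. WT and knockdown libraries carry different title suffixes, so genotype and any difference in handling cannot be told apart. Replicates were numbered in accession order only.

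CXCL8, CXCL1, CXCL2 and CXCL3 lie in a cluster of chemokine genes, and their products signal through the receptor CXCR2. IL6 encodes a cytokine that acts through gp130 and STAT3. Their transcription is driven by NF-kB and AP-1 factors, often together, and these cytokines are known parts of the secretory programs of senescent and stressed cells. MDA-MB-231 is known for a high basal output of them.

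Stretches upstream of the RefSeq starts of CXCL8, IL6 and CXCL1 are shown because these are the chemokine and cytokine genes on which the comparison turns. They come from RefSeq (GRCh38.p14), run 5′ to 3′ on the gene's strand, and capitals mark each match of GGANTTTCC, an NF-kB-like motif searched on both strands and chosen after the sequences were read. The CXCL8 stretch is chr4:73740419-73740505 (plus strand, 150 to 64 bases before the start), the IL6 stretch chr7:22727050-22727146 (plus strand, 150 to 54 bases before) and the CXCL1 stretch chr4:73869243-73869342 (plus strand, 150 to 51 bases before).
CXCL8: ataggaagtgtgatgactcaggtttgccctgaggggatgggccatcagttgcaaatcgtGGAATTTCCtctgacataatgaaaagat
IL6: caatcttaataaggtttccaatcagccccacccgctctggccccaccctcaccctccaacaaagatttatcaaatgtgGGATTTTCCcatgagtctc
CXCL1: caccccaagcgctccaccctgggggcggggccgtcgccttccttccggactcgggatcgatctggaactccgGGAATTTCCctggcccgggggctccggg
The matches began 91 bases before the start in CXCL8, 72 in IL6 and 78 in CXCL1, and CXCL2 and CXCL3 held the same letters as CXCL1 from 77 and 78 bases before their starts. GGANTTTCC was found in 1.64% of all 35116 RefSeq windows of 300 bases, and in 6 of the 38 named genes that had a window (out of 52 named). These were CXCL8, IL6, CXCL1, CXCL2, CXCL3 and CYLD. Because the motif was chosen after the windows were read, its share among named genes cannot serve as a test of enrichment. Here and below a gene was counted if any of its windows matched. Some genes had several windows, so shares of genes can lie above shares of windows for that reason alone. A looser NF-kB-like pattern, 3 G and 2 C with any 5 bases between them, can overlap the first motif and was found in 27 of these 38 and in 58.7% of all windows. The AP-1-like motif TGANTCA was found in 6 of the 38 and in 7.71% of all windows. The CXCL8 window held it as TGACTCA from 137 bases before the start. These matches describe the letters of the windows and were not tested as sites.

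The kept cells summed to 15286467 counts in replicate 1 and 17661327 in replicate 2 of untreated knockdown, and single cells held from 12204 to 1618701, so that sums over cells weigh the largest cells most. The other 6 libraries held from 9321268 to 24256471 counts. No cell name was shared between libraries. ATM stood at 13.8 and 32.95 CPM in the untreated knockdown libraries and at 57.9 and 31.1 CPM in untreated WT, so that the second knockdown library lay within the WT range. MDA-MB-231 identity genes summed to between 13127 and 14456 CPM in the 4 sums of class and library. The leukocyte genes PTPRC, CD3D and LYZ had no count in any of the 85 cells, while CD14, CSF1R, LCP1 and NKG7 had counts.

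CXCL8 (ENSG00000169429.10, chromosome 4, 73740506 to 73743716, plus strand, GRCh38) ranged over single cells from 0 to 2100 CPM in replicate 1 and from 0 to 2960 CPM in replicate 2. Replicate 1 had 23 positive cells among 41, a share of 56.1% (95% Clopper-Pearson interval 39.7 to 71.5%), and replicate 2 had 29 among 44, a share of 65.9% (50.1 to 79.5%). The share was 37.5% and 22.9% in untreated WT, 14.6% and 31.3% in irradiated WT, and 11.6% and 6.98% in irradiated knockdown. Intervals here and below cover the sampling of cells within a library only. The plot of CXCL8 in single cells shows that both untreated knockdown libraries lay higher than the other 6 in their median.

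**Figure D1:**
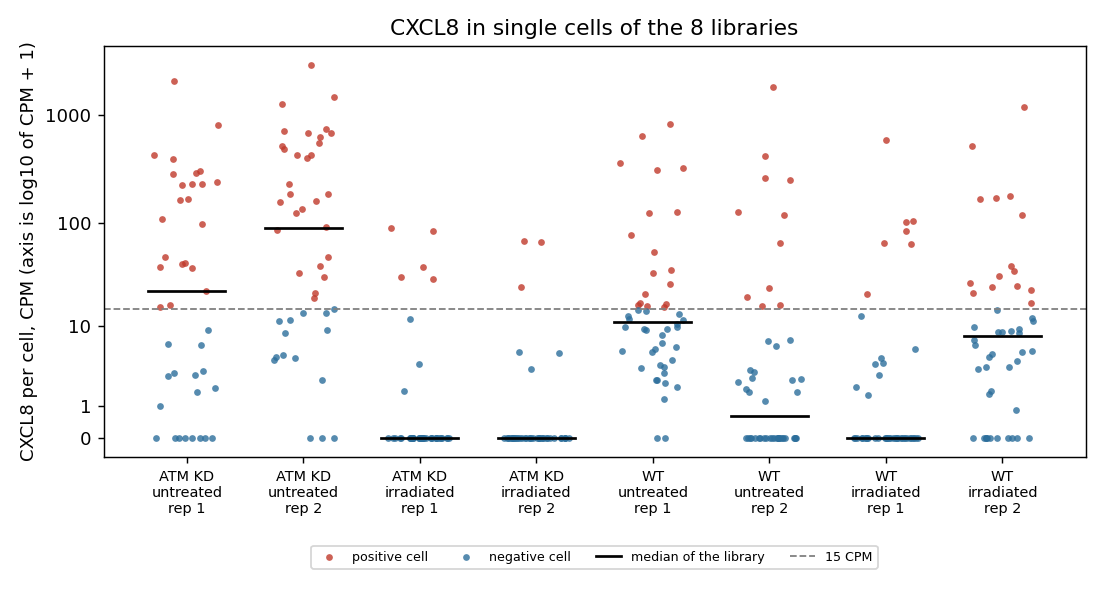
CXCL8 in every kept cell of the 8 libraries, on a log10 axis of CPM + 1; each point is 1 cell, red at 15 CPM or more and blue below, black bars are library medians and the dashed line is 15 CPM. The median was 22.4 and 88.1 CPM in the 2 untreated knockdown libraries and at most 10.996 CPM in the others.

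The classes were not 2 separate clusters of cells. The lowest positive cell held 15.4 CPM in replicate 1 and 18.9 CPM in replicate 2, and the highest negative cell 9.05 and 14.8 CPM. Positive cells had a median of 166 and 228 CPM, negative cells a median of 1.34 and 4.89 CPM, and 8 and 3 cells had no CXCL8 count. The 5 cells with the most CXCL8 counts, which include cells of high total, held 80.0% of all CXCL8 counts in replicate 1 and 57.9% in replicate 2. All but 2 positive cells, both in replicate 1, held more than 1 CXCL8 count.

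Depth differed between the classes. The median counts per cell were 250368 in positive and 329449 in negative cells of replicate 1, and 270969 against 426100 in replicate 2, which gave ratios of 0.76 and 0.636. Median detected genes were closer, at 5744 against 5906 and 5975 against 6541. Within each library CXCL8 CPM and total counts had a Spearman correlation over cells of 0.0084 (n = 41) and -0.14 (n = 44). After each cell was thinned to 60000 counts, which 74 of the 85 cells reached, the 8 cells lost from the positive class and the 3 from the negative class were the shallow ones. Shares of cells with a gene detected at this equal depth keep the classes of the unthinned cells, with 18 positive and 16 negative cells in replicate 1 and 26 and 14 in replicate 2. In the refit on thinned counts the classes were called anew, and there 15 CPM is less than 1 count, so any CXCL8 count made a cell positive. This gave 19 positive and 15 negative cells in replicate 1 and 30 and 10 in replicate 2, so the refit changed depth, cells and classes together.

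Counts were summed per library and class, and positive and negative sums were compared within libraries by edgeR's quasi-likelihood test in a fit of 14 sums from 7 libraries. Irradiated knockdown replicate 2, with 3 positive cells, was left out. Of 13036 genes tested 45 passed an adjusted p of 0.05, or 0.345%. Of these calls 21 (0.161%) were higher and 24 (0.184%) lower in CXCL8-positive cells of untreated knockdown. The higher genes included IL6, CXCL1, CD14, SAT1 and G0S2, while 17 of the 24 lower genes were members of the list of G2/M and mitosis genes. The fit took each gene's spread from its expression level and not from the gene itself, so the p of a gene carried by few cells can be too small. By limma on the mean CPM per cell, 0 genes passed and 957 had an unadjusted p under 0.05. That setting gave each cell equal weight but also changed the test, so weight and test cannot be told apart. In an edgeR fit of the untreated knockdown libraries alone, with 1 residual degree of freedom, 69 of 10749 genes passed (0.642%), 32 higher (0.298%) and 37 lower (0.344%), and 34 of these were among the 45.

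**Figure D2:**
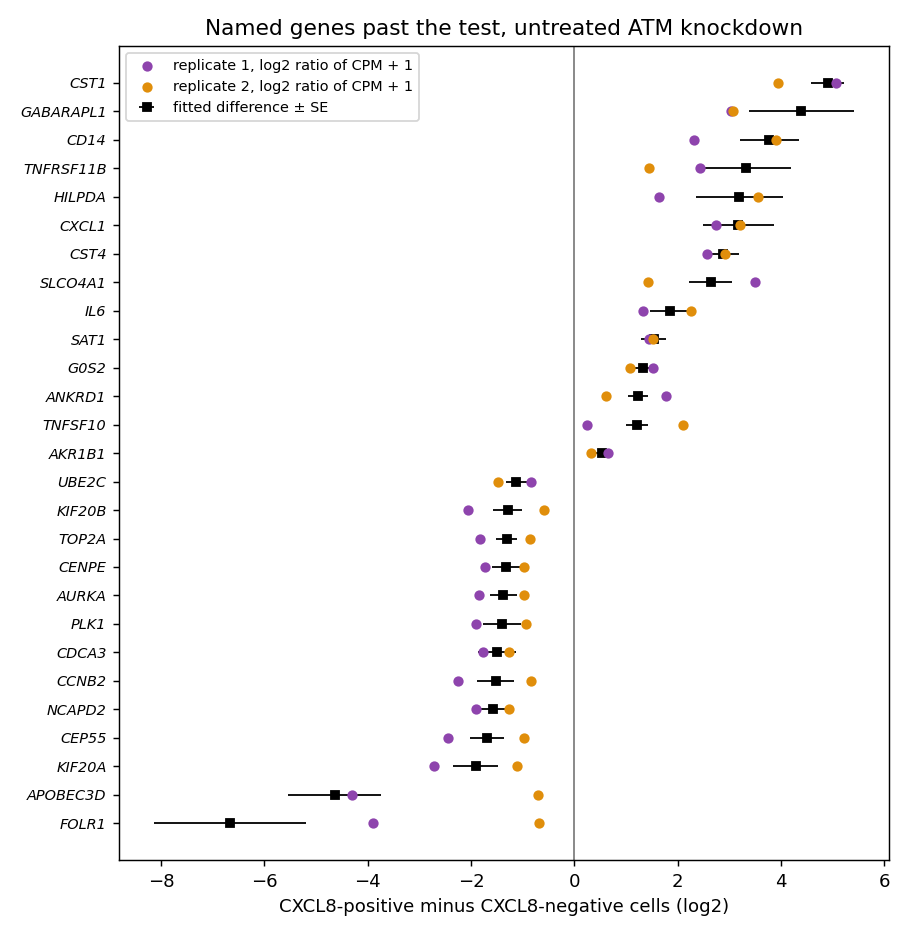
Named genes that passed the test in untreated ATM knockdown; black squares are the fitted log2 difference of CXCL8-positive minus negative cells with its SE, and coloured points are each library's log2 ratio of summed CPM + 1. The 12 largest changes each way were named only where both libraries lay on 1 side of 0, and FOLR1 and APOBEC3D lay far apart between libraries.

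IL6 (ENSG00000136244.11, chromosome 7, 22725884 to 22732002), the cytokine gene, stood at 219 CPM in positive and 86.4 CPM in negative cells of replicate 1, and at 280 and 57.9 CPM in replicate 2. Both libraries were thus higher in positive cells. The fitted log2 difference was 1.84 ± 0.38 (SE), with an adjusted p of 0.00098 by edgeR. Medians over single cells were closer, at 40.5 against 25.7 CPM in replicate 1 and 64.3 against 8.54 CPM in replicate 2, and the highest positive cells reached 1458 and 2634 CPM against 588 and 316 CPM for negative ones. At equal depth IL6 was detected in 13 of 18 positive and 9 of 16 negative cells of replicate 1, and in 18 of 26 and 7 of 14 cells of replicate 2. Without thinning these were 15 of 23 and 15 of 18 cells, and 23 of 29 and 10 of 15. IL6 overlaps STEAP1B, from which its reads cannot be told apart if strand was not used. With either knockdown library left out the difference was 1.38 or 2.32 and did not pass.

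CXCL1 (ENSG00000163739.4, chromosome 4, 73869393 to 73871242), a chemokine for the same receptor as CXCL8, stood at 73.0 against 10.1 CPM in replicate 1 and at 54.1 against 4.99 CPM in replicate 2. The fitted difference was 3.18 ± 0.68 on the log2 scale, with an adjusted p of 0.0022 by edgeR. In replicate 1 this came from a few high cells, since the median positive cell held 2.02 CPM and the median negative cell 5.18 CPM, while the highest positive cell held 818 CPM against 84.2 CPM. In replicate 2 the median positive cell held 24.7 CPM and the median negative cell had no count. CXCL1 was detected at equal depth in 9 of 18 positive and 7 of 16 negative cells of replicate 1, and in 15 of 26 and 1 of 14 cells of replicate 2. Among the settings in which it did not pass were either knockdown library left out (adjusted p = 0.383 and 0.327 by edgeR) and the refit on thinned counts (adjusted p = 0.169).

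CXCL2 (ENSG00000081041.8, chromosome 4, 74097035 to 74099293, minus strand), another CXCR2 ligand gene, went different ways in the libraries. It stood at 129 CPM in positive and 149 CPM in negative cells of replicate 1, but at 253 and 20.3 CPM in replicate 2. The fitted log2 difference of 1.73 ± 0.50 did not pass (adjusted p = 0.093 by edgeR). It was -0.17 with replicate 2 left out and 3.69 with replicate 1 left out, and it passed in the knockdown libraries alone (adjusted p = 0.00024) and in the refit on thinned counts (1.85, adjusted p = 0.025). One positive cell of replicate 2 held 26.8% of all CXCL2 counts at 2184 CPM. CXCL2 was detected at equal depth in 16 of 18 positive and 12 of 16 negative cells of replicate 1 and in 17 of 26 and 9 of 14 cells of replicate 2, so CXCL8-negative cells were not without CXCL2.

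**Figure D3:**
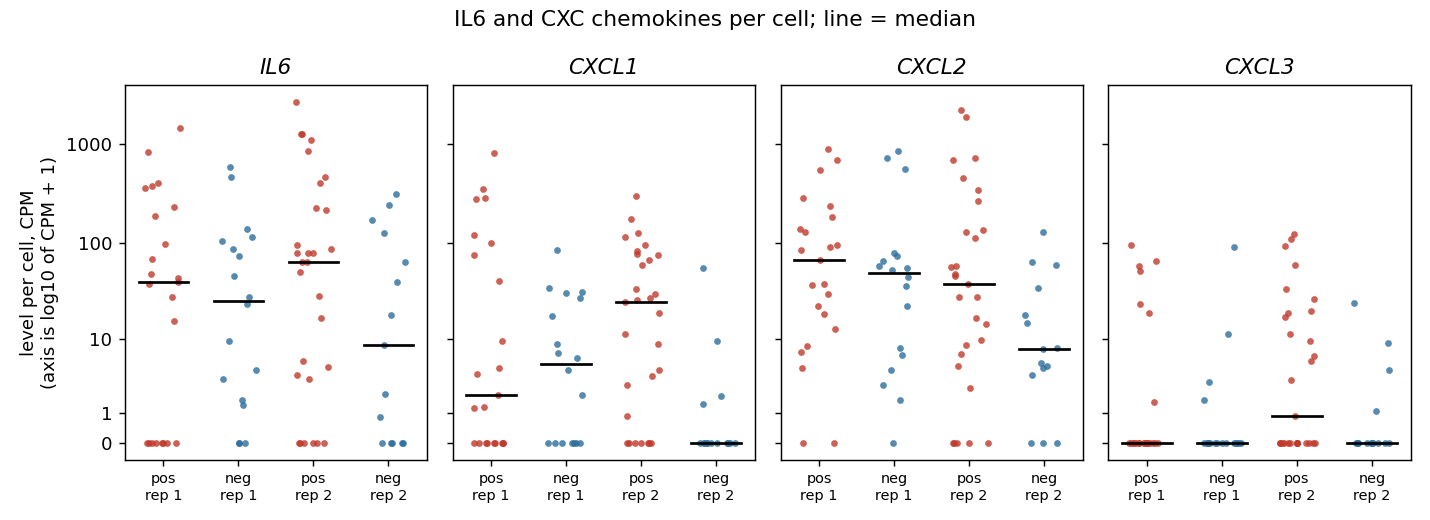
IL6, CXCL1, CXCL2 and CXCL3 in each untreated knockdown cell by class and replicate, on a log10 axis of CPM + 1; points are cells and bars are medians. The classes overlapped for all 4 genes, and the highest cells of IL6 and CXCL1 were CXCL8-positive in both replicates.

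Of 13 chemokine ligands on the list, 8 were tested and had a count in these cells. Of these 6 were higher and 2 lower in positive cells, and 1, CXCL1, passed. Their median log2 difference was 1.94, beside 0.06 over all genes tested with a count. It was 1.66 with the 2 genes at 0 in negative cells set to a floor of 3 counts over the class. Over the 10 ligands tested, 2 of them with no count, the median was 0.32 with replicate 2 left out and 1.80 with replicate 1 left out. CXCL3 stood at 16.7 against 7.35 CPM and at 26.7 against 3.17 CPM (2.15 ± 1.05, adjusted p = 0.858 by edgeR). CCL2 had no count. The rank correlations of these genes with CXCL8 over the cells of at least 60000 counts were 0.41 and 0.46 for IL6, 0.35 and 0.33 for CXCL1, 0.38 and 0.24 for CXCL3, and 0.19 in both libraries for CXCL2 (34 and 40 cells of 1 library each, which share their depth and class).

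Of 10 interleukins and colony-stimulating factors with a count, 8 were higher and 2 lower (median 0.43), and only IL6 passed the edgeR test. IL1B, an upstream inducer of IL6 and CXCL8, stood at 25.8 against 5.04 CPM in replicate 1 and 18.4 against 4.38 CPM in replicate 2 (2.25 ± 1.14, adjusted p = 0.897). The growth factor genes CSF2 and CSF1 had differences of 0.42 and 0.00 and did not pass.

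No receptor, NF-kB subunit or NF-kB inhibitor on the lists passed the edgeR test. Of 20 cytokine and innate immune receptors and adaptors, 15 were higher and 5 lower with a median of 0.29, and 0 passed by edgeR, with 0 at an unadjusted p under 0.05. CD40 had the smallest p, with 69.7 against 45.1 CPM and 66.4 against 29.3 CPM in positive and negative cells (0.94 ± 0.49, adjusted p = 0.936). Of 11 NF-kB subunits and kinases, 8 were higher and 3 lower with a median of 0.43, and 0 passed by edgeR, with 1 at an unadjusted p under 0.05. That gene was IKBKE, an IkB kinase-related kinase, at 35.7 against 18.2 CPM and 49.4 against 13.3 CPM (1.47 ± 0.67, adjusted p = 0.79). RELA, the p65 subunit, had a difference of 0.43 ± 0.32.

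The feedback inhibitors, which NF-kB itself induces, showed 9 higher and 3 lower of 12, with a median of 0.19, 0 calls and 0 at an unadjusted p under 0.05 by edgeR. NFKBIA, which encodes IkB-alpha, stood at 422 against 261 CPM in replicate 1 and 361 against 473 CPM in replicate 2, so the libraries went opposite ways. Of 22 other NF-kB target and survival genes with a count, 17 were higher and 5 lower (median 0.53), and 1, TNFSF10, passed. TNFSF10, which encodes the death ligand TRAIL, stood at 412 against 345 CPM in replicate 1 and 396 against 91.3 CPM in replicate 2 (1.22 ± 0.22, adjusted p = 3.2e-05 by edgeR). Without its highest cell, which held 18.6% of its counts, the log2 ratio of replicate 1 was -0.70, so that its rise rested on replicate 2. SAA1, an acute-phase protein gene, stood at 1972 against 1423 CPM and 1624 against 1073 CPM (0.57 ± 0.16, adjusted p = 0.088 by edgeR). Among the alternatives, SAA1 passed in the knockdown libraries alone and with the threshold for a positive cell at 50 CPM. SOD2, the mitochondrial superoxide dismutase, stood at 427 against 971 CPM and 394 against 45.3 CPM, and 1 negative cell of replicate 1 held 36.8% of its counts.

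**Figure D4:**
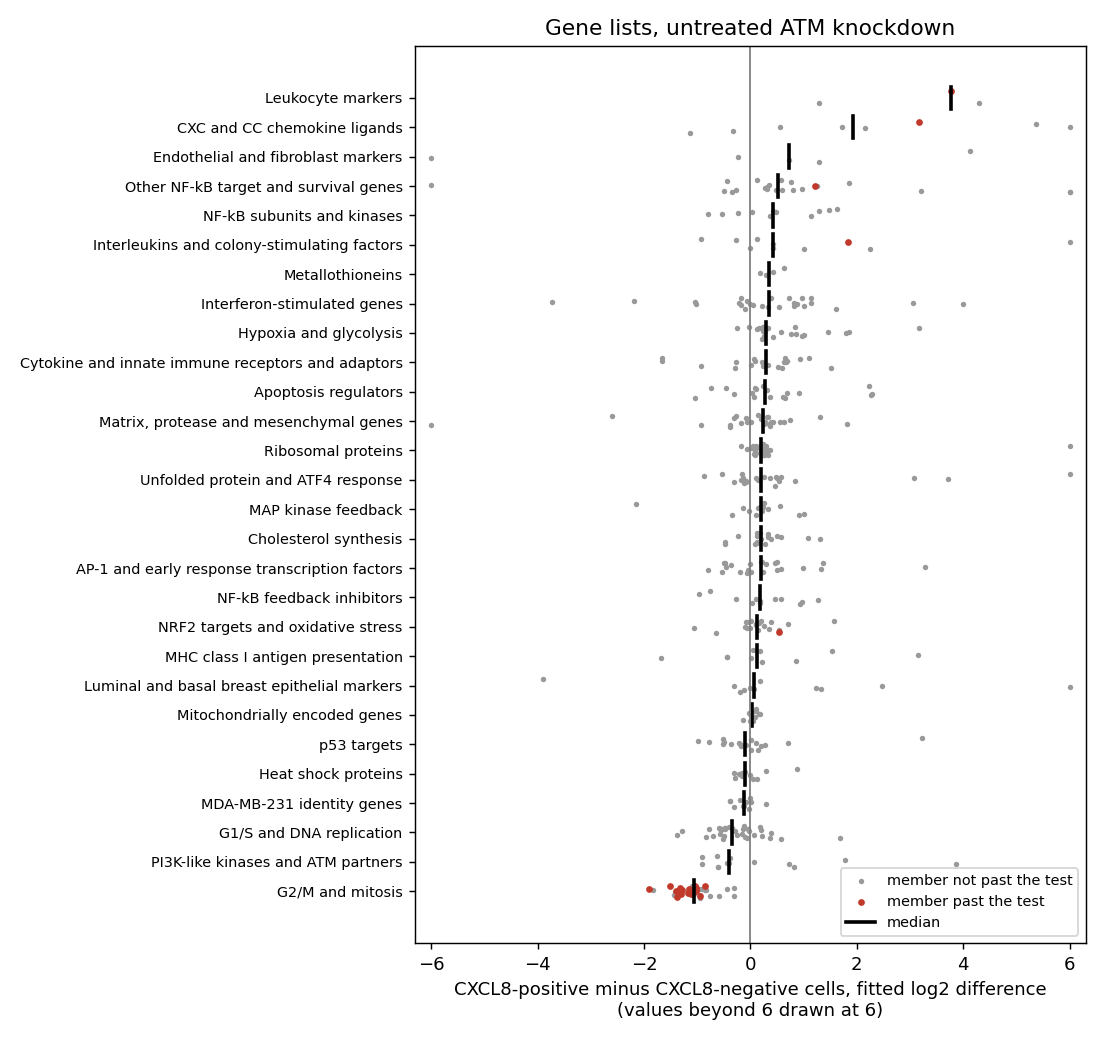
Fitted log2 differences (CXCL8-positive minus negative, untreated knockdown) of the members of each gene list that had a count, with red points for members past the test, grey points for the others and black bars for medians; values beyond 6 are drawn at 6. All 36 G2/M members lay below 0, and the chemokine and interleukin lists each had 1 member past the test.

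Among the other genes that were higher in positive cells, SAT1, which encodes the polyamine-acetylating enzyme, differed by similar ratios in both libraries. SAT1 stood at 426 against 155 CPM in replicate 1 and at 194 against 66.8 CPM in replicate 2 (1.53 ± 0.25, adjusted p = 1.3e-06 by edgeR), and its median cells stood at 362 against 106 CPM and 129 against 54.1 CPM. At equal depth SAT1 was detected in 18 of 18 positive and 12 of 16 negative cells of replicate 1 and in 23 of 26 and 8 of 14 cells of replicate 2, against 23 of 23, 18 of 18, 26 of 29 and 12 of 15 without thinning. With replicate 1 left out it did not pass. AKR1B1, aldose reductase and a member of the NRF2 list, stood at 1868 against 1188 CPM and 1877 against 1493 CPM (0.53 ± 0.13, adjusted p = 0.0185 by edgeR), and it did not pass under 11 alternatives. It was the only 1 of the 20 NRF2 genes tested that passed. FTL, the ferritin light chain, had a difference of 0.38 ± 0.11 that did not (adjusted p = 0.079 by edgeR), though it passed in the knockdown libraries alone. AKR1B1 and FTL have 7 and 16 annotated pseudogenes by name, whose reads could be shared.

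ANKRD1, a YAP-responsive gene, stood at 818 against 240 CPM and 478 against 313 CPM (1.23 ± 0.20, adjusted p = 1.2e-06 by edgeR). G0S2, an inhibitor of the lipase ATGL, stood at 1323 against 463 CPM and 414 against 195 CPM (1.34 ± 0.23, adjusted p = 1.1e-05), and 1 positive cell of replicate 1 held 30.4% of its counts. Without that cell the log2 ratio in replicate 1 was 0.42. Both genes were higher in positive cells of both libraries, and neither passed with replicate 1 left out.

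CD14, the lipopolysaccharide co-receptor best known from monocytes, stood at 21.1 against 3.46 CPM in replicate 1 and 16.3 against 0.151 CPM in replicate 2 (3.77 ± 0.57, adjusted p = 1.2e-07 by edgeR). CD14 was detected at equal depth in 7 of 18 positive cells (exact interval 17.3 to 64.3%) and 1 of 16 negative cells (0.158 to 30.2%) of replicate 1. In replicate 2 it was detected in 8 of 26 positive cells (14.3 to 51.8%) and 0 of 14 negative cells, which allows a share of up to 23.2%. It did not pass in the knockdown libraries alone or with replicate 2 left out. In untreated WT it stood between 62.5 and 182 CPM in all 4 sums. The 7 leukocyte markers in the tables summed to 31.4 against 6.19 CPM and 28.8 against 5.74 CPM, with PTPRC, CD3D and LYZ at 0. CSF1R had 53 counts in positive and 2 in negative cells of both libraries together, LCP1 170 and 53, and NKG7 1 and 1. All 3 markers that were tested and had a count were higher in positive cells of both libraries, and 1, CD14, passed.

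CST1 and CST4 are neighbouring genes of salivary-type cystatins on chromosome 20. Their summed levels were higher in positive cells of both libraries, with 1 cell weighing heavily in replicate 1. CST1 stood at 149 against 3.46 CPM and 67.5 against 3.48 CPM (4.90 ± 0.33), and CST4 at 124 against 20.2 CPM and 61.4 against 7.25 CPM (2.87 ± 0.32). The same positive cell of replicate 1, with a CXCL8 level of 41.5 CPM, held 56.2% of the CST1 counts and 51.1% of the CST4 counts. Without it the log2 ratio in replicate 1 was 1.54 for CST1 and -1.29 for CST4, while in replicate 2 it was 3.94 and 2.92. With the threshold for a positive cell at 50 CPM both differences turned over, to -1.28 and -2.02. At equal depth CST1 was detected in 3 of 18 positive and 3 of 16 negative cells of replicate 1. In replicate 2 these were 11 of 26 and 3 of 14. For CST4 they were 4 of 18 and 6 of 16, and 10 of 26 and 4 of 14. Without thinning, 27 of 52 positive and 18 of 33 negative cells of both libraries had CST1. For CST4 these were 28 of 52 and 18 of 33. These paralogs are close in sequence, so reads could be shared between them.

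SLCO4A1, an organic anion transporter, stood at 36.4 against 2.31 CPM and 30.4 against 10.7 CPM (2.64 ± 0.42, adjusted p = 7.1e-07 by edgeR), and it did not pass under 6 alternatives, the knockdown libraries alone and replicate 1 left out among them. The autophagy gene GABARAPL1, the hypoxia-induced lipid droplet gene HILPDA and TNFRSF11B, which encodes osteoprotegerin, rose by 4.39, 3.20 and 3.32 on the log2 scale from low levels, between 1.72 and 26.0 CPM in positive cells. TNFRSF11B had counts in 7 cells only. GABARAPL1 did not pass under 10 of the alternatives, HILPDA under 14 and TNFRSF11B under 13. The 7 other higher genes, named here after their values were seen, were SRGN, DKK1, C4orf3, MRPS6, SOX4, ANKRA2 and ZNF250. SRGN, which encodes the secretory-granule proteoglycan serglycin, stood at 218 against 103 CPM and 214 against 101 CPM (1.12 ± 0.28). SOX4, a transcription factor, went opposite ways, with 54.6 against 93.5 CPM and 54.7 against 0.151 CPM.

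Genes of G2 and mitosis were lower in CXCL8-positive cells. All 36 genes on the list had a lower summed level in positive cells in both libraries, 17 passed the test and 0 rose, with a median log2 difference of -1.05. TOP2A, the topoisomerase that resolves chromosome tangles, stood at 220 CPM in positive and 785 CPM in negative cells of replicate 1, and at 357 and 649 CPM in replicate 2 (-1.31 ± 0.21, adjusted p = 6.2e-07 by edgeR). Its median cell stood at 22.4 against 206 CPM in replicate 1 but at 221 against 82.3 CPM in replicate 2, so the median went the other way there. AURKA, the centrosomal kinase, stood at 108 against 389 CPM and 149 against 295 CPM (-1.38 ± 0.26, adjusted p = 0.00022), while its median cell stood at 24.4 against 9.07 CPM and 14.04 against 59.4 CPM. The mitotic ubiquitin-conjugating enzyme UBE2C stood at 288 against 519 CPM and 240 against 666 CPM (-1.12 ± 0.20). Among the others, the kinesin KIF20A fell by 1.91, cyclin B2 (CCNB2) by 1.52, the kinase PLK1 by 1.40, the centromere kinesin CENPE by 1.32 and KIF20B by 1.29 on the log2 scale.

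The mitotic genes CEP55 (-1.69), NCAPD2 (-1.58) and CDCA3 (-1.50), which act in abscission, chromosome condensation and mitotic entry, also fell though they were not on the list. KPNA2 and CKS2, named after their values were seen, were the other cell cycle genes that fell. KPNA2 stood at 256 against 497 CPM and 305 against 548 CPM, and CKS2 at 231 against 384 CPM and 242 against 613 CPM. The last 2 lower genes had counts in few cells. FOLR1, the folate receptor gene, had 1 count in positive cells, and 1 negative cell of replicate 1 held 63.2% of its counts. Without that cell its log2 ratio in replicate 1 was -2.67, and FOLR1 was detected in 4 negative cells there and in 1 of replicate 2. APOBEC3D, a cytidine deaminase gene, had 90.8% of its counts in 1 negative cell of replicate 1, and a ratio of -0.22 there without it. G1/S and replication genes had 27 lower and 8 higher of 35 (median -0.34), with 0 calls by edgeR and 4 at an unadjusted p under 0.05.

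Summed over the list, G2/M genes made up 3664 CPM in positive and 8840 CPM in negative cells of replicate 1, and 5479 and 9672 CPM in replicate 2. The median cell held 844 against 2954 CPM in replicate 1 and 4327 against 9833 CPM in replicate 2. The classes overlapped widely, as the plot of G2/M genes per cell shows. Of the 20 cells of replicate 1 above the library's median G2/M level, 8 were CXCL8-positive, against 15 of the 21 at or below it, and in replicate 2 these were 12 of 22 and 17 of 22. Over cells the Spearman correlation of the G2/M level with CXCL8 was -0.32 (n = 41) and -0.33 (n = 44), and with total counts 0.04 and -0.08.

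**Figure D5:**
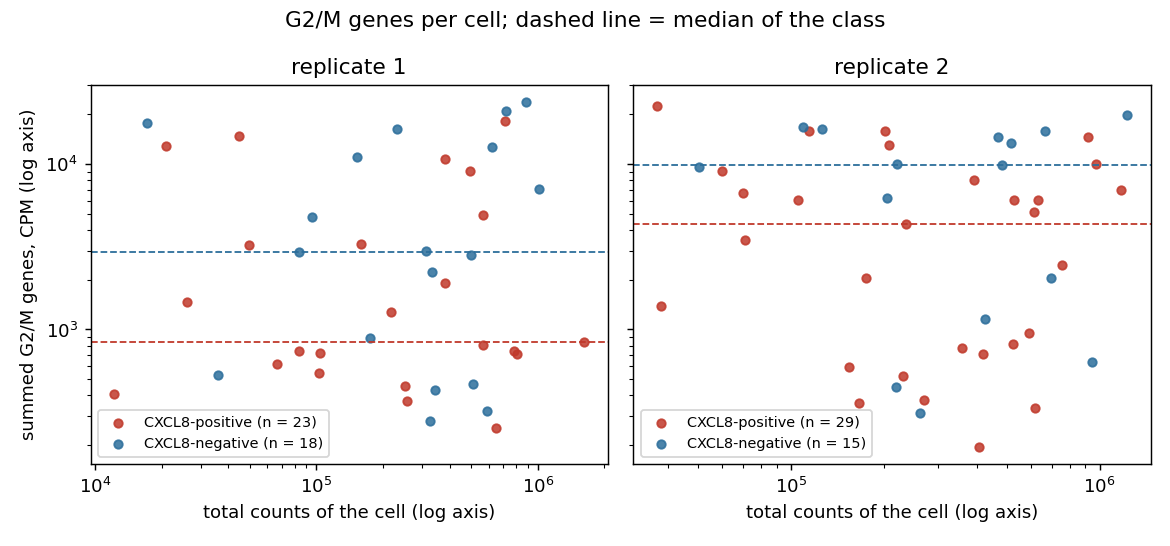
Summed level of the 36 G2/M genes against total counts for each untreated knockdown cell, both on log axes, in replicate 1 (left) and 2 (right); red points are CXCL8-positive and blue points CXCL8-negative cells, with dashed class medians. The positive median lay below the negative one in both replicates, at 844 against 2954 CPM and 4327 against 9833 CPM.

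The summed G2/M difference of replicate 1 was smaller without the largest cells. When cells holding over 2 times the median count of their library were left out, the summed level was 3947 CPM in 18 positive and 4231 CPM in 15 negative cells of replicate 1, and 3580 against 8788 CPM in replicate 2. The median cell then held 1369 against 2826 CPM in replicate 1 and 2774 against 9833 CPM in replicate 2. Of the 36 genes 29 were then lower, 5 passed and the median was -0.70, and UBE2C stood at 0.14. In the refit on thinned counts, with its own classes, 34 of 36 were lower, 9 passed and the median was -0.90. With replicate 1 left out 1 passed and with replicate 2 left out 7, all 36 being lower each time. In limma on the mean CPM per cell 35 of 36 were lower and 0 passed.

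In untreated WT the same 36 genes had a median difference of -0.36, with 7091 against 11222 CPM in replicate 1 and 4862 against 4370 CPM in replicate 2. The test of the difference between genotypes passed for 1 member of the list, CCNB2 (-1.97 ± 0.50, adjusted p = 0.043 by edgeR). It did not pass for TOP2A, which was lower in positive WT cells too (-1.04).

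Other lists had few or no calls. Over all genes tested 723 of 13036 had an unadjusted p under 0.05, and of the 12369 with a count 6692 were higher and 5677 lower. Of 24 hypoxia and glycolysis genes 22 were higher and 2 lower (median 0.30, or 0.28 with the gene at 0 in 1 class set to the floor). Of 35 ribosomal protein genes 33 were higher and 2 lower (median 0.21). Both lists had 0 calls by edgeR, with 8 and 4 genes at an unadjusted p under 0.05. In the refit on thinned counts, with its own classes, 10 of the 24 hypoxia and 12 of the 35 ribosomal genes were lower, and the medians were 0.04 and 0.06. Cholesterol synthesis showed 15 higher and 3 lower of 18 (median 0.20), with 0 calls and 3 at an unadjusted p under 0.05. Interferon-stimulated genes showed 16 higher and 10 lower of 26, with 0 calls and 5 at an unadjusted p under 0.05. Their median was 0.36, or 0.28 with the gene at 0 in 1 class set to the floor. In the refit on thinned counts, 3 of 21 interferon-stimulated genes were lower, 4 passed as higher and the median was 0.64. With replicate 1 left out 14 of the 18 cholesterol genes were lower. The p53 targets showed 8 higher and 11 lower of 19 with a count (median -0.10, 0 calls, 1 at an unadjusted p under 0.05). Mitochondrially encoded genes made up 10.8% of counts in positive and 11.4% in negative cells of replicate 1, and 12.2% and 11.6% in replicate 2.

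ATM went opposite ways in the libraries. It stood at 21.2 CPM in positive and 4.90 CPM in negative cells of replicate 1, and at 28.97 and 39.6 CPM in replicate 2 (0.82 ± 0.65, adjusted p = 1.0 by edgeR). Of 13 PI3K-like kinases and ATM partners tested, ATM included, 5 were higher and 8 lower with 0 calls and 3 at an unadjusted p under 0.05.

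Whether positive and negative cells differed in the same way in untreated WT was tested in the same fit. The same threshold gave classes of unlike CXCL8 level. Positive cells had a median of 44.0 and 117 CPM in WT, against 166 and 228 CPM in knockdown. A single cell held 68.4% of the CXCL8 counts of WT replicate 1. Genotype and the CXCL8 level of the classes therefore cannot be told apart in this test. The difference between genotypes passed for 24 genes (0.184%), of which 16 (0.123%) lay above and 8 (0.0614%) below 0. Neither IL6 nor CXCL1 was among them. In WT, IL6 stood at 73.7 against 38.4 CPM and 70.1 against 46.0 CPM in positive and negative cells, and its WT difference of 0.80 ± 0.37 lay below that in knockdown by 1.04 ± 0.52 (adjusted p = 0.906 by edgeR). CXCL1 stood at 26.7 against 12.04 CPM and 146 against 24.2 CPM in WT (1.91 ± 0.66), and CXCL2 at 66.6 against 24.3 CPM and 35.6 against 7.69 CPM (1.85 ± 0.43). The interval of the difference between genotypes is wide for these genes, with SEs of 0.52, 0.90 and 0.65.

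ANKRD1 differed in opposite directions. In WT it was lower in positive cells, at 402 against 1007 CPM and 415 against 1230 CPM (-1.42 ± 0.19), and the difference between genotypes was 2.64 ± 0.28. SLC7A11, the cystine transporter gene, was lower in positive knockdown cells, at 99.6 against 279 CPM and 132 against 215 CPM, and higher in positive WT cells, at 181 against 59.0 CPM and 111 against 60.2 CPM. Its difference between genotypes was -2.34 ± 0.44 (adjusted p = 0.00018 by edgeR). SAA1 and AKR1B1 were also among the genes whose difference lay higher in knockdown, by 1.00 ± 0.23 and 0.75 ± 0.18 (adjusted p = 0.017 and 0.035). With untreated WT replicate 1 left out 70 genes passed, and in a fit of the 4 untreated libraries alone 2 did.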

How the data were processed

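Single MDA-MB-231 cells were profiled with a modified Smart-seq2 protocol and 3' mRNA libraries, per the labels' protocols. The deposited tables hold whole-number counts per coding gene and cell. Trimmomatic 0.36, HISAT2 2.1.0 and HTSeq 0.9.1 with hg38 are named in the submitters' processing notes. Whether counts are reads or unique molecules, and whether strand was used, is not given in the sources used here, so overlapping genes and paralogs are uncertain.

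The members, gene lists, tests and most alternatives were chosen with earlier results of these data known. Tables list different genes, and absent ones were set to 0 (15041 genes over all tables). Counts were summed per library and class, passed through filterByExpr, given TMM factors and compared with edgeR 4.0.16, with library as a block and a class effect per group (3 residual degrees of freedom, common biological coefficient of variation 0.519), with Benjamini-Hochberg adjustment over 13036 genes at 0.05. CXCL8 was not tested. CPM is per 1000000 counts, and ratios per library use CPM + 1. Each edgeR SE is the absolute fitted difference divided by the square root of the test's F statistic. It therefore restates the test and is not a separate estimate of spread. The script was tested on class sums simulated from the fit itself, so that test did not cover genes carried by few cells. Thinning to 60000 counts used a fixed seed, and the refit on thinned counts called the classes anew. Doublets were not called, since cells were picked singly.

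Named genes were CXCL8, CXCL2, IL6 and ATM, then called genes averaging 4 or more in log2 CPM with the same direction in both libraries (the 12 largest each way). Called members of the cytokine and NF-kB lists and the 3 smallest p of these lists and of each list with a call were added, as were the 5 smallest p each way for the difference from WT. The alternatives were DESeq2 1.42.0, limma 3.58.1, other filters, scalings, thresholds and depths, and libraries left out. Positions came from GENCODE 29 (GRCh38). R 4.3.3 and Python 3.11.15 were used.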

Additional observations from a re-analysis of the deposited data

Results flagged for a closer look

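The difference between CXCL8-positive and negative cells was not the same in untreated knockdown and untreated WT for 24 genes, by the edgeR test of the difference itself. Positive WT cells held lower median CXCL8 levels than positive knockdown cells, as given above. The values below are knockdown minus WT on the log2 scale, each with the adjusted p of that test under 0.05. Above 0 lay CST1 (4.02), ANKRD1 (2.64), KRT81 (2.58), SPANXB1 (2.44) and CST4 (2.35). In WT, CST1 stood at 191 against 228 CPM and 1651 against 425 CPM in positive and negative cells. CST4 stood there at 132 against 189 CPM and 981 against 348 CPM. The WT libraries thus went opposite ways for both cystatin genes. KRT81, a hair keratin gene that overlaps KRT86, stood at 17.7 against 30.3 CPM and 34.7 against 20.9 CPM in positive and negative knockdown cells, and at 147 against 590 CPM and 69.8 against 635 CPM in WT. SPANXB1, a cancer-testis gene, stood at 67.3 against 190 CPM and 280 against 250.1 CPM in knockdown, and at 111 against 699.8 CPM and 92.7 against 1067 CPM in WT.

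Below 0 lay FOLR1 (-7.73), APOBEC3D (-5.80), SLC7A11 (-2.34), FEZ2 (-1.97) and FOSL1 (-1.56). FOLR1 and APOBEC3D had most of their knockdown counts in 1 negative cell each, and CST1 and CST4 in 1 positive cell. FOSL1, an AP-1 subunit gene, stood at 249 against 353 CPM and 164 against 239 CPM in knockdown, and at 233 against 165 CPM and 334 against 110 CPM in WT. FEZ2 stood at 71.2 against 111 CPM and 87.8 against 181 CPM in knockdown, and at 123 against 78.4 CPM and 319 against 104 CPM in WT.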

How the results depend on the processing

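The 45 calls between classes became 46 with DESeq2's size factors, 47 with no scaling, 41 with no filter, 49 by DESeq2's Wald test (29 shared with the 45, and 10 of the 27 named calls lost), 42 in the refit on thinned counts (16 shared) and 53 at 3000 genes per cell or more. They became 11 at an average log2 CPM of at least 5, 0 by limma on the mean CPM per cell, 69 in the knockdown libraries alone, 1 with no library block and 23 without cells above 2 times the median. A threshold of 50 CPM gave 71, positive at 1 count 433, and 50 CPM against 0 counts 117; the last 2 rest on replicate 1, since replicate 2 has 3 cells at 0. Leaving out libraries gave from 14 to 69 calls: 14 without knockdown replicate 1 and 30 without replicate 2, 19 and 21 without irradiated WT replicates 1 and 2, 69 without either untreated WT library, and 26 without irradiated knockdown replicate 1. The 24 calls between genotypes became 2 in the 4 untreated libraries alone and 5 in the refit on thinned counts, and from 11 (without knockdown replicate 1) to 70 (without WT replicate 1).

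The share of positive cells was 61.2% over both libraries, 44.7% at 50 CPM and 87.1% at 1 count. The ratio of median counts, averaged over the libraries, was 0.698, with 2.65 at 1 count, 0.985 in cells where 15 CPM is more than 1 count and 0.798 at 3000 genes. Directions turned for CST1 (-1.28) and CST4 (-2.02) at 50 CPM, for APOBEC3D (9.38), TNFSF10 (-0.48) and SPANXB1 (2.20) at 1 count, and for UBE2C (0.14) without large cells. The cause was not tested. No paired analysis across groups was possible because the labels give no replicate numbers. Depth limits genes near 1 count per cell, and 2 libraries per group limit every test.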
